A study of Mus musculus with 2 samples.

Results

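The genes described here are 9 microRNA genes known from mesenchymal cells: Mir21a, Mir143, Mir145a, Mir199a-1, Mir199a-2, Mir199b, Mir214, Mir218-1 and Mir218-2. They were taken by symbol from the 1973 microRNA genes listed for the fetal mouse liver, of which 700 had a same-strand count in at least 1 library. The samples were liver tissue of B6NCrl mouse embryos at embryonic day 14.5, with no treatment or allele named in the labels. There was 1 group of 2 libraries, called replicate 1 and replicate 2, made from RNA under 30 nucleotides. They were labelled as biological replicates from different collection days, yet they carry the same donor ID and a pooled sex, so how far they are independent animals is uncertain. Unless a sentence says otherwise, p-values and intervals cover counting error alone and take no account of the spread between livers or of PCR copies. Levels are in CPM, the count on the gene's own strand per 1000000 such counts in the library, and a value after ± is the SD (n = 2). The libraries held 2353946 and 3132763 same-strand gene counts.

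A microRNA is cut from a hairpin in a longer primary transcript, and bases 2 to 8 of the mature strand, the seed, pair with target mRNAs. The liver's mesenchyme holds the cells that become stellate cells, portal fibroblasts and the smooth muscle of vessels. miR-21 is made in many cell types and is known from fibroblasts and stellate cells in fibrosis. miR-143 and miR-145 come from the same primary transcript and are typical of smooth muscle cells and pericytes. The miR-199 and miR-214 genes lie antisense to dynamin genes and are known from skeletal and other mesenchyme. miR-218 is carried by the Slit genes, whose secreted proteins guide axons and migrating cells through Robo receptors, and is best known from motor neurons.

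The mature strands below, from RefSeq on GRCm38.p6, are shown for 7 of the 9 members because their sharing decides which reads could be counted at a single gene. Capitals mark the seed.
mmu-miR-21a-5p: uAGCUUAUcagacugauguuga
mmu-miR-214-3p: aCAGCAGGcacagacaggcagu
mmu-miR-199a-5p: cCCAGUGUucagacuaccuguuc
mmu-miR-199a-3p: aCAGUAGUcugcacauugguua
mmu-miR-199b-3p: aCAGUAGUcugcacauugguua
mmu-miR-218-5p: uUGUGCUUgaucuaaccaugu
mmu-miR-218-1-3p: aAACAUGGuuccgucaagcacc
mmu-miR-218-2-3p: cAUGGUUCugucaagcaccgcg
The miR-199a-3p and miR-199b-3p strands are identical, so this product is made by 3 genes and its seed is shared among them. The miR-199a-5p strand is made by both Mir199a genes, and miR-218-5p by both Mir218 genes. The other arm of the Mir218 hairpins occurs in no other annotated hairpin. Neither miR-21a-5p nor miR-214-3p occurs in another annotated hairpin, although miR-21c shares the seed of miR-21a-5p and miR-761 that of miR-214-3p.

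The hairpins of the miR-199 and miR-218 genes show where the copies differ, and capitals mark the mature strands listed by RefSeq.
Mir199a-1: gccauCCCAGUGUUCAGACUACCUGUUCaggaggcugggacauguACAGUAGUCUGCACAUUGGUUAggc
Mir199a-2: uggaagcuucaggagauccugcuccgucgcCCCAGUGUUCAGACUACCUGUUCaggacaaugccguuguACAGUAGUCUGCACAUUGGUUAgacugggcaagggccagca
Mir199b: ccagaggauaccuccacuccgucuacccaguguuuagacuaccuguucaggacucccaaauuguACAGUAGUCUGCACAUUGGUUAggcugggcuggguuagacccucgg
Mir218-1: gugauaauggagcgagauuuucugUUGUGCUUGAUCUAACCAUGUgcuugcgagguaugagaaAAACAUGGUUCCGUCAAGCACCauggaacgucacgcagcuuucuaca
Mir218-2: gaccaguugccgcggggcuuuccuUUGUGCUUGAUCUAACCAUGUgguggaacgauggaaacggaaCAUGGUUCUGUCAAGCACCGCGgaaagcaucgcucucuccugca
In a global alignment the hairpins of Mir199a-1 and Mir199a-2 were identical at 63 of 68 aligned bases, and those of Mir218-1 and Mir218-2 at 83 of 103. The stretch of the Mir199b hairpin that matches miR-199a-5p differed from it by C10U, counted from 1 at the 5′ end of miR-199a-5p. Reads with several possible places, 34.0% of the reads of replicate 1 and 33.1% of those of replicate 2, went uncounted. The counts of the 5 miR-199 and miR-218 genes are therefore lower limits.

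The members ran from rank 9 to rank 581 of the 1973 genes in mean level, but only 700 of these genes had any same-strand count. The 9 genes together held 4.82% of the counts in replicate 1 and 4.27% in replicate 2, a mean of 45457 ± 3870 CPM. Mir21a and Mir143 made up 97.5% and 96.5% of that sum in replicates 1 and 2. The other 7 members came to 1182 CPM in replicate 1 and 1500 CPM in replicate 2. Since the samples are bulk tissue, fewer cells of a type and less RNA per cell cannot be told apart, and which cells made the reads was not tested.

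**Figure D1:**
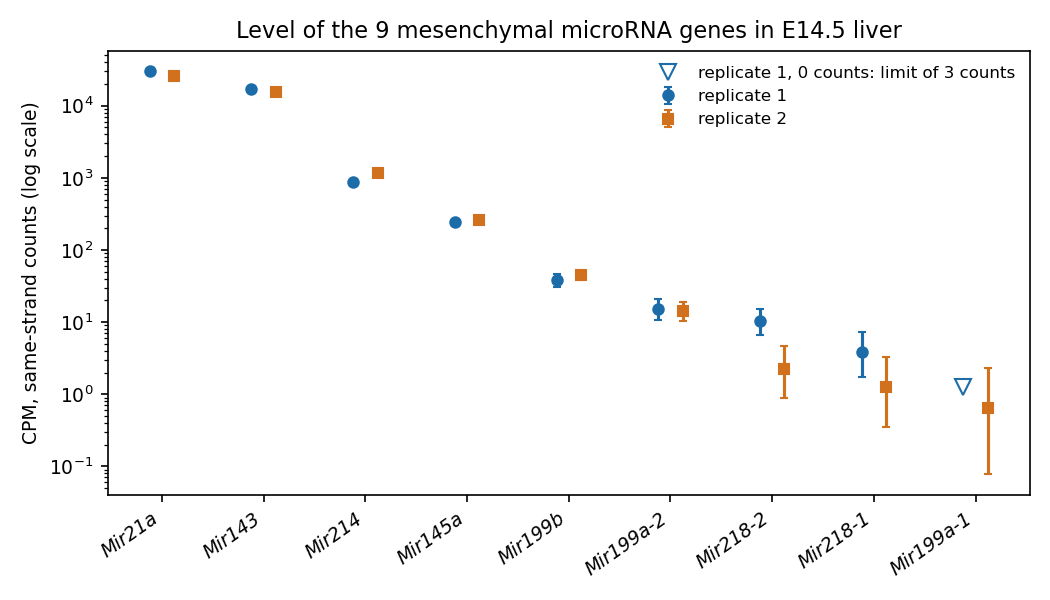
Level of each of the 9 genes in CPM (log axis) in replicate 1 (circles) and replicate 2 (squares), ordered by mean level, with 95% Clopper-Pearson intervals that cover counting error only. The open triangle is a fixed limit of 3 counts, not a Clopper-Pearson bound, for the 0 counts of Mir199a-1 in replicate 1. Only Mir218-2 and Mir218-1 are neighbours whose values overlap.

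Mir21a, on chromosome 11 from 86584067 to 86584158 of GRCm38, had the highest level of the 9. It lies within an exon of Vmp1, in the untranslated part, on the same strand. Vmp1 encodes a membrane protein of the endoplasmic reticulum that is needed for autophagy. Mir21a had 71036 counts in replicate 1 and 80147 in replicate 2, which is 30177 and 25584 CPM, and it stood at rank 9 of the 1973 genes. The table sums both arms of a hairpin, so the shares of miR-21a-5p and miR-21a-3p were not analysed here. Its neighbours in level were Mir335 with 31747 ± 1380 CPM and Mirlet7i with 23409 ± 122.1 CPM. The genes annotated as Mir21b and Mir21c had 0 counts on either strand in both libraries.

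Mir143 and Mir145a lie on chromosome 18, on the same strand and 1301 bp apart. Mir143 (61649196 to 61649258) comes first in the direction of transcription, 366 bp behind the annotated end of Carmn, a long noncoding RNA of smooth muscle cells. Mir145a (61647825 to 61647894) lies 352 bp from Bvht, a long noncoding RNA known from cardiac development, on the opposite strand. The annotation places no host gene over either of them. The gene IDs of both carry an earlier version in the deposited tables than in this annotation, so the interval counted may differ from these coordinates.

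**Figure D2:**
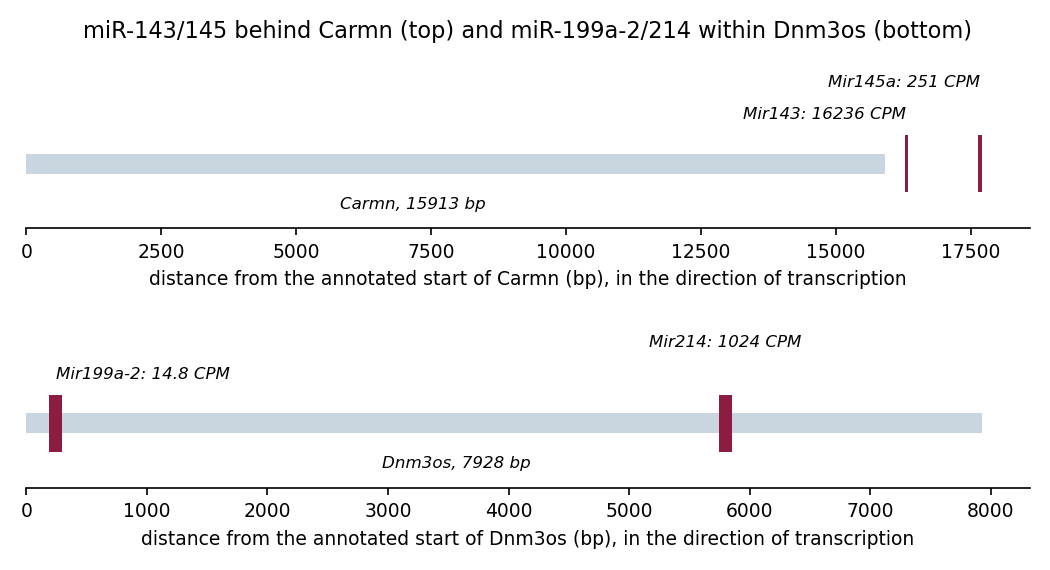
Maps of the 2 loci that hold more than 1 member, in bp from the annotated start of Carmn (top) and Dnm3os (bottom), with the transcripts in grey and the hairpins in red. The mean CPM beside each hairpin shows that the first is the higher at Carmn and the second is the higher in Dnm3os.

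Mir143 had far more counts than its neighbour, although counts were not calibrated to molecules. It had 39626 counts in replicate 1 and 48989 in replicate 2, or 16834 and 15638 CPM, at rank 18. Mir145a had 568 and 815 counts, or 241.3 and 260.2 CPM, at rank 150. The gap was 69.8-fold in replicate 1 and 60.1-fold in replicate 2. By Clopper-Pearson 95% bounds, Mir145a made up 1.41% of the pair's counts in replicate 1 (between 1.30% and 1.53%) and 1.64% in replicate 2 (between 1.53% and 1.75%). This share differed between the libraries by a two-sided Fisher's exact test, with a Benjamini-Hochberg adjusted p of 0.0417 over 96 close pairs. That test covers counting error only, and the 2 shares lie close together, so a difference between livers is not shown. Neither hairpin shares 20 bases with another annotated hairpin, and Mir145b, which shares 17 with Mir145a, had 0 counts on either strand in both libraries.

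A gap of this size was not rare among neighbouring microRNA genes. Close pairs were next neighbours on the same strand within 10 kb, each gene with at least 10 counts in each library. Of 96 such pairs, 17 had a wider mean gap than Mir143 and Mir145a, and the median gap was 7.55-fold. The widest was between Mir411 and Mir1197 (4764-fold and 8419-fold in replicates 1 and 2), and the narrowest between Mir665 and Mir540 (0.933 and 1.07). Some of the wider pairs share a gene, such as Mir1197 or Mir19a, so they are not separate cases. The pair of Mir214 and Mir199a-2 is among them. In 8 of the 17 wider pairs the lower gene's hairpin shares at least 20 bases with another. Among the 60 pairs in which neither hairpin does, a restriction chosen after the data were seen, 7 were wider and the median gap was 5.66-fold. The shares differed between the libraries in 18 of the 96 pairs (18.8%).

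**Figure D3:**
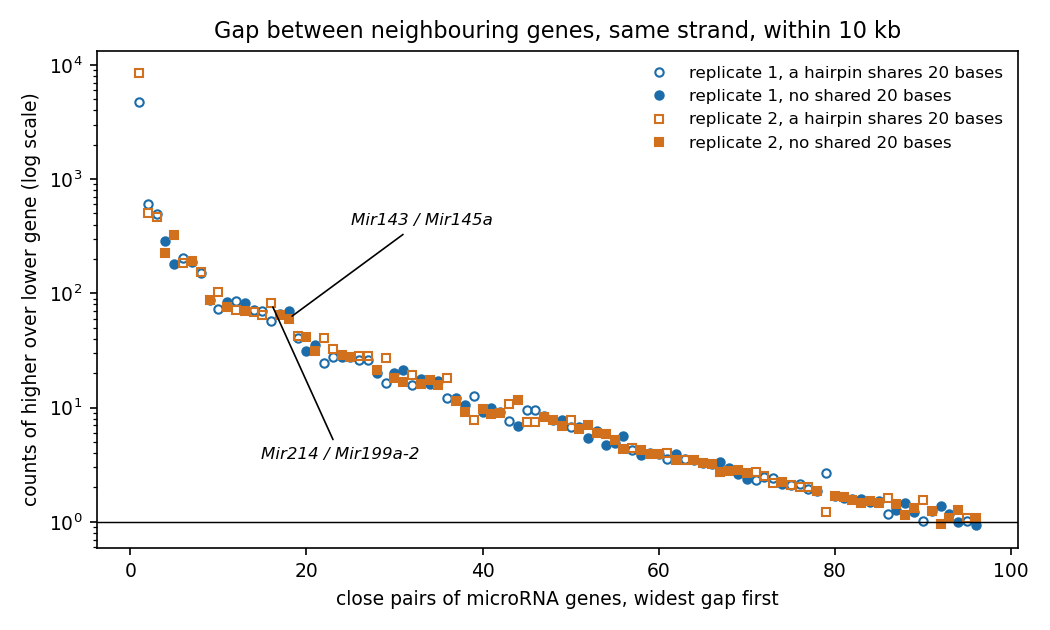
Counts of the higher over the lower gene (log axis) in 96 close pairs of microRNA genes, ordered from the widest mean gap, in replicate 1 (circles) and replicate 2 (squares). Open symbols are pairs in which a hairpin shares 20 bases with another, and the Mir143 and Mir145a pair sits at place 18 with 69.8-fold and 60.1-fold.

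Mir199a-2 and Mir214 lie on chromosome 1 in exons of Dnm3os, a noncoding transcript antisense to the dynamin gene Dnm3, 5444 bp apart. Mir214 (162223368 to 162223477) had 2055 counts in replicate 1 and 3683 in replicate 2, which is 873.0 and 1176 CPM, at rank 92. Mir199a-2 (162217814 to 162217923) had 36 and 45 counts, or 15.3 and 14.4 CPM, at rank 270. Mir214 was 57.1-fold higher in replicate 1 and 81.8-fold higher in replicate 2. Mir199a-2 made up 1.72% of this pair in replicate 1 (between 1.21% and 2.38%) and 1.21% in replicate 2 (between 0.882% and 1.61%), with an adjusted p of 0.329 by the same Fisher's exact test. Here both mature strands of the lower gene occur in other hairpins, so the gap is an upper limit.

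The other miR-199 genes lie antisense to introns of dynamin genes and have no host on their own strand. Mir199b, within Dnm1 on chromosome 2 (32318460 to 32318569), had 90 counts in replicate 1 and 142 in replicate 2, which is 38.2 and 45.3 CPM. Mir199a-1, within Dnm2 on chromosome 9 (21496495 to 21496564), had 0 and 2 counts. For the count of 0 in replicate 1 a fixed limit of 3 counts, or 1.27 CPM, of uniquely mapped reads was set. The two-sided Clopper-Pearson 95% interval there ended higher, at 1.57 CPM. Mir199b, with the 1 base of difference shown above, was the highest of the 3 in counts. All 9 members had 0 opposite-strand counts in both libraries, including the 4 that lie antisense to a dynamin gene.

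The miR-218 genes were near the detection limit. Mir218-2, in an intron of Slit3 on chromosome 11 (35616816 to 35616925), had 24 counts in replicate 1 and 7 in replicate 2, which is 10.2 and 2.23 CPM. Mir218-1, in an intron of Slit2 on chromosome 5 (48223942 to 48224051), had 9 and 4 counts, or 3.82 and 1.28 CPM. Mir218-2 was the higher in each library, although the values overlap across the libraries. The counts of both are lower limits, so the order of their full levels is not settled. Other next neighbours in the order of the 9 members did not overlap. In replicate 1 the Clopper-Pearson interval of Mir199a-1 ended at 1.57 CPM, below the 1.75 CPM at which that of Mir218-1 began. In replicate 2, at 2 and 4 counts, their intervals overlapped. The counted reads thus set Mir199a-1 below Mir218-1 in replicate 1 alone, for counting error only.

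The levels of the members went with the sharing of their sequences. The 4 members whose hairpins share no 20 bases with another, Mir21a, Mir143, Mir214 and Mir145a, had means between 250.7 and 27880 CPM. The 5 that do share had means between 0.319 and 41.8 CPM. These 5 come from the miR-199 and miR-218 families alone, and each shares within its family. Of the 332 genes tested, 76 have a hairpin that shares 20 bases, and their levels were not compared with the rest. The pattern is therefore not shown beyond the members, and the part of uncounted reads in it was not tested.

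Between the replicates, 6 members had at least 10 counts in each library and were compared by an exact binomial test (two-sided) on the counts, given the library totals. The comparison is of these 2 libraries and not of conditions. Of the 332 genes tested, 139 (41.9%) differed at an adjusted p under 0.05, and 3 of the 6 members did, a share near that background. As log2 of replicate 1 over replicate 2, the 6 members had a median of -0.01, against -0.03 over all genes tested, and a median absolute value of 0.17, against 0.16.

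Mir21a was higher in replicate 1 by 1.18-fold, with exact 95% bounds of 1.17 and 1.19 and an adjusted p of 1.31e-222 by the exact test. Mir143 was higher in replicate 1 by 1.08-fold (1.06 to 1.09, adjusted p = 1.40e-26 by the same exact test). Mir214 went the other way and was 1.35-fold higher in replicate 2 (1.28 to 1.42, adjusted p = 8.72e-27 by the exact test). These adjusted p-values cover counting error only, and at such counts small differences pass. With the dispersion of the 2 libraries themselves, 24.9% as a coefficient of variation, edgeR's exact test called none of the 6 members, with unadjusted p between 0.432 and 0.906. That dispersion contains the differences under test, so ratios this small could hardly pass. The test cannot decide whether the members differ between livers.

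The other tested members did not pass. Mir145a was 0.928 times as high in replicate 1 as in replicate 2 (95% exact interval 0.832 to 1.03, adjusted p = 0.297 by the exact binomial test). Mir199b stood at 0.844 times (0.640 to 1.11) and Mir199a-2 at 1.06 times (0.667 to 1.69). Mir143 passed toward replicate 1 while its neighbour Mir145a, at 0.928 times, did not pass, and the only test of that difference is the Fisher's exact test of their shares above, with its limit. Likewise the Mir214 and Mir199a-2 shares did not pass, so Mir199a-2, with 36 and 45 counts, is not shown to move differently from Mir214.

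**Figure D4:**
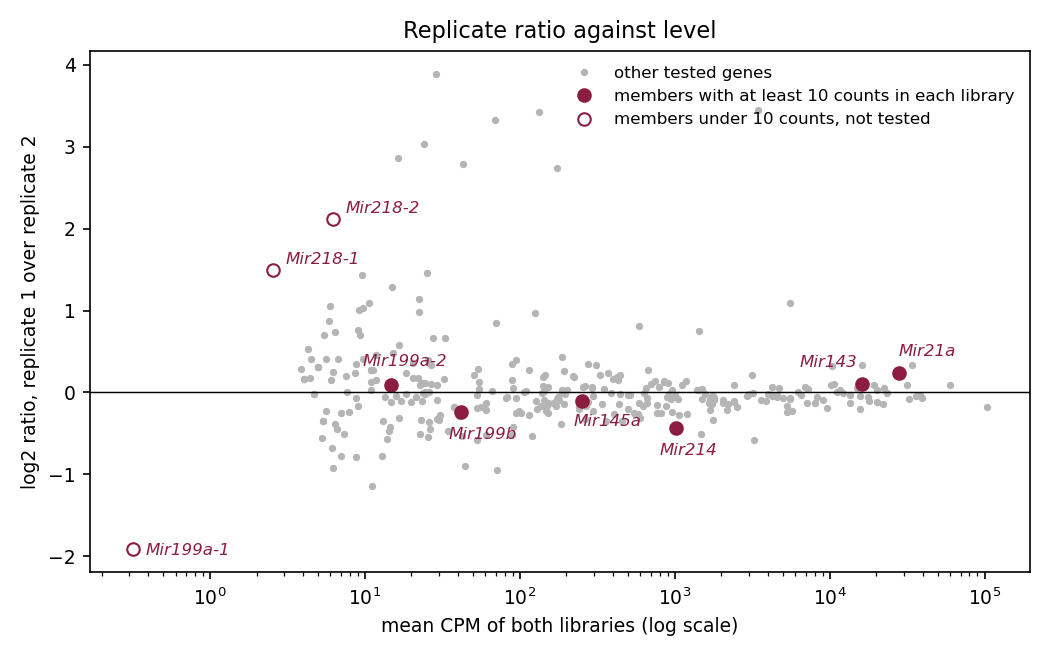
Log2 ratio of replicate 1 over replicate 2 (0.5 added to each count) against mean CPM (log axis) for the 332 tested genes in grey, the 6 tested members as filled circles and the 3 members under 10 counts in a library as open circles. Mir21a (0.24) and Mir143 (0.11) lie above 0, Mir214 lies below it (-0.43), and the Mir218 genes have the highest ratios among the members.

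Mir218-2 had the largest ratio, with replicate 1 higher by 4.56-fold (exact 95% bounds 1.91 and 12.5), but its 7 counts in replicate 2 kept it out of the test. With a minimum of 1 count it passed the exact binomial test (adjusted p = 0.00091 over 542 genes). Mir218-1 was 2.99-fold higher (0.836 to 13.3) and did not pass at that minimum (adjusted p = 0.25 by the exact test). Genes of a neural marker list were mostly higher in the same library. Their summed level was 701.4 CPM in replicate 1 and 323.4 CPM in replicate 2. Of the 8 tested genes, 6 were called higher in replicate 1, where 18.4% of all tested genes were, and none in replicate 2. The list was chosen with earlier results of these data known, so its share beside that of all genes is a description only. By edgeR's exact test, which uses the spread between the libraries, 2 of the 8 were called higher in replicate 1, Mir137 and Mir219a-2. That test called 8 of the 332 tested genes in all, each of them higher in replicate 1. Of the 13 list genes with a row, Mir9-2, Mir124a-2 and Mir124a-3 were at 0 in both libraries. The Mir9 and Mir124a copies make the same mature strands at several loci, so their zeros do not show absence. Mir9-3 had 38 counts in replicate 1 and 2 in replicate 2. Mir137, a neuronal microRNA, stood at 242.1 CPM in the first library and 22.3 CPM in the second. The highest gene of the list, Mir128-1 with 140.9 ± 12.8 CPM, was not called (adjusted p = 0.156 by the exact binomial test). The part of neural RNA in the miR-218 ratios was not tested.

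Muscle and epithelial markers were low beside Mir143. The muscle list summed to 312.2 CPM in replicate 1 and 278.0 CPM in replicate 2, with 3 of its 8 genes at 0 in both, among them Mir1a-1. Its highest gene was Mir499, carried by a myosin gene, with 265.5 ± 10.2 CPM. The Mir1a and Mir133a copies make the same mature strands at more than 1 locus, so this sum is a lower limit. The epithelial list of miR-200 genes summed to 2716 CPM in replicate 1 and 2967 CPM in replicate 2. The liver cell marker Mir122 stood first of all genes, and the tissue label and this marker do not conflict.

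A list of other microRNAs known from fibroblasts, smooth muscle or matrix control, none of them a member, leaned toward replicate 1 by the exact binomial test. Like the other lists here, it was chosen with earlier results of these data known, so its lean is a description only. Of its 24 genes 21 had a row and 19 were tested. By the exact binomial test 9 were higher in replicate 1, where 18.4% of all tested genes were, and 1 was higher in replicate 2, against 23.5% of all. The 9 ranged from 1.02-fold for Mir22 to 10.9-fold for Mir10b. By edgeR's exact test 2 of the 19 were higher in replicate 1, Mir10b and Mir196a-2, and none in replicate 2. Over all 332 tested genes that test called 8 higher in replicate 1 and 0 higher in replicate 2. The median log2 ratio of the list was 0.15, against -0.03 over all genes tested. Markers of other cells also differed by the binomial test. The red cell markers Mir451a and Mir144 summed to 49613 CPM in replicate 1 and 39515 CPM in replicate 2, with 2 of 2 higher in replicate 1. The 3 liver cell markers summed to 103914 CPM in replicate 1 and 117327 CPM in replicate 2, with 3 of 3 higher in replicate 2. Of the 3 tested muscle genes 1 was called, Mir206, with 31.0 CPM in the first library and 14.05 CPM in the second. The other 2 were not, among them the far higher Mir499 (adjusted p = 0.454 by the exact binomial test). The vessel marker Mir126a and the granulocyte and monocyte marker Mir223 were called higher in replicate 1. Of 5 epithelial genes, 2 were called higher in replicate 2 and 3 were not called. None of these markers of other cells was called by edgeR's exact test, with the limit of that test given above. Their part in the ratios of the list and of the members was not tested. The highest genes of the list of other mesenchymal microRNAs were Mir22 with 20086 ± 238.6 CPM and Mir99a, next below Mir143 in level, with 16222 ± 2682 CPM. Mir10a, Mir10b and Mir196a-2, which lie in Hox gene clusters, were among those higher in replicate 1. Mir29a, whose targets include collagen mRNAs, had 1009 ± 18.6 CPM, next below Mir214 in level, and did not pass.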

How the data were processed

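Per the notes deposited with the files, the tables use assembly mm10 and annotation M4, and each derives from its own alignment. No source used here names the aligner or counter. What the authors deposited are unnormalised read counts at microRNA genes on either strand, on the gene's own strand and on the opposite strand. The 4 rows with no gene stayed out of library totals. They hold unmapped (18.6% and 17.7% of 6395680 and 8068090 reads), multiply mapped (34.0% and 33.1%) and unassigned reads (10.6% and 10.4%), and 0 ambiguous ones.

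IDs were matched without version to GENCODE M21 (GRCm38, the assembly mm10 names), which named 1894 of 1973. Members and lists were chosen with earlier results of these data known. The neighbours named are those next in mean CPM, and the list genes named are the 2 highest, apart from Mir10a, Mir10b, Mir196a-2, Mir29a, Mir137 and markers at 0, which were named after their values were seen. Same-strand counts were scaled to CPM. Libraries were compared gene by gene with a two-sided exact binomial test (minimum of 10 counts in both) and close pairs with Fisher's exact test, using Benjamini-Hochberg adjusted p-values under 0.05 (SciPy 1.17.1). edgeR 4.0.16 and DESeq2 1.42.0 gave other scalings, and edgeR an exact test. The binomial, interval and Fisher steps were tested on simulated counts with counting error only. edgeR's exact test was tried on a few large changes with less added spread than the libraries have. These simulations do not show how the steps behave with the spread between livers. Intervals cover counting error only, since PCR copies are not independent molecules.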

Additional observations from a re-analysis of the deposited data

How the results depend on the processing

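The calls for Mir21a, Mir143 and Mir214 kept their direction and stayed past the threshold with counts regardless of strand, TMM scaling, DESeq2 size factors, totals without the highest gene, a minimum of 1 or 100 counts and no minimum. Several of these settings could change little. The minimums leave each gene's unadjusted p as it was, and counts regardless of strand change only the totals for these genes. All of the settings cover counting error only. Mir21a, Mir143 and Mir214 did not pass edgeR's exact test with the common dispersion of the 2 libraries. That test called 0 members, 8 genes in all, 8 higher in replicate 1 and 0 higher in replicate 2. At an unadjusted p under 0.05 that test gave 13 genes higher in replicate 1, 0 higher in replicate 2 and 0 members, whereas the exact binomial test called 139 genes. That dispersion contains the differences under test. Its counts for the lists, 2 of 19 other mesenchymal and 2 of 8 neural genes, were added after the data were seen. The level of the 9 members, 45457 CPM, became 40954 CPM with counts regardless of strand and 50706 CPM with totals that leave out the highest gene, because the totals change. It ranged from 42721 to 48193 CPM when either replicate was left out. The share of Mir145a in its pair ranged from 1.41% to 1.64% when either replicate was left out, and its adjusted p by Fisher's exact test from 0.0397 to 0.0464 with other sets of pairs. Leaving out a replicate leaves 1 library, so no ratio could be computed. Pairs within 2 kb give no value for Mir214 and Mir199a-2, which lie farther apart. No paired analysis was possible because there is 1 group. Depth limits Mir199a-1 and both Mir218 genes, where 3 counts are 1.27 CPM in replicate 1 and 0.958 CPM in replicate 2.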

Other observations

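By the log2 ratio of replicate 1 over replicate 2, the genes of at least 100 counts in each library nearest to Mir21a were Mir181a-1 (0.23) and Mir33 (0.26), those nearest to Mir143 were Mir106b (0.11) and Mir503 (0.10), and those nearest to Mir214 were Mir155 (-0.42) and Mir92-2 (-0.38). The genes nearest to Mir145a were Mir30d (-0.11) and Mir127 (-0.11). With 2 libraries this likeness rests on 1 ratio per gene.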
